A study of Oreochromis niloticus and Pundamilia nyererei with 6 samples.

Results

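Flanking strandless transcripts were assembled liver transcripts for which no strand is listed, which overlapped no stranded transcript and which lay under 5000 bases from the nearest one. Distance is the difference of the facing coordinates, and each species was searched on its own transcript set. The rule gave 1712 transcripts in ON (Oreochromis niloticus, the Nile tilapia), out of 8372 strandless and 41456 transcripts in all. In PN (Pundamilia nyererei, a haplochromine cichlid of Lake Victoria) it gave 4345, out of 18134 strandless and 45966 transcripts. Thus 20.4% of the strandless transcripts of ON and 24.0% of those of PN were flanking. The remaining strandless transcripts lay inside stranded spans (2668 in ON, 5384 in PN), at 5000 bases or more from any span (3553 and 6472) or on sequences with no stranded transcript (439 and 1933).

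The samples were livers of 3 ON and 3 PN males, all reared in tanks, with 1 library per fish. The ON fish were of generation 93 or thereabouts of a stock from Manzala in Egypt, and the PN fish were of generation 1 of a stock from Lake Victoria. No fish was treated or genetically altered according to the labels. Total RNA was depleted of ribosomal RNA and sequenced from stranded libraries as paired reads of 75 bases. Abundance is given as FPKM, the fragments per kilobase of a transcript in each Mio of fragments. The aligned bases, divided by the length of a read pair, come to 13.2 to 13.3 Mio in ON and 11.3 to 13.0 Mio in PN. All ON values lie above the mean number of paired-end reads that the paper states for the liver samples. They are therefore not read here as counts of sequenced pairs. The fish of a species share a merged transcript set, so counts of transcripts have no replicate error. The medians of these fish are likewise taken over the same transcripts and the same neighbours. Tests over fish therefore measure the spread between libraries, and not that between independent sets of transcripts. Species, genome, annotation and transcript set cannot be told apart wherever ON is set against PN. Coordinates are those of the authors' tables, on the builds ASM185804v2 (ON) and PunNye1.0 (PN). Transcripts carry serial names without gene symbols, so the liver label was not checked against marker genes and no neighbour is named here.

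RNA polymerase II commonly transcribes past the cleavage site at the end of a gene, and the last exon often carries an untranslated region whose length varies between tissues. Many active promoters also give rise to short upstream RNAs, usually in the opposite direction. RNA without a poly(A) tail is kept when libraries are made by depletion of ribosomal RNA. An assembler reads the strand of a spliced transcript from its splice sites, which an unspliced transcript lacks. All 1712 ON and all 4345 PN flanking strandless transcripts had 1 exon, and each is described below by the side of its neighbour on which it lay, after the end or before the start.

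In both species more of these transcripts lay after ends than before starts. In ON, 1031 (60.2%) lay after the end of the nearest stranded transcript, 679 (39.7%) before its start and 2 were equally near to both kinds of end. In PN the counts were 2686 (61.8%), 1654 (38.1%) and 5. Those after ends were nearer, at a median distance of 1130 bases against 1866 before starts in ON, and 1029.5 against 1628.5 bases in PN. They were also longer, with a median length of 541 against 467 bases in ON and 642.5 against 546.5 bases in PN. Gaps shorter than a read of 75 bases separated 41 transcripts from an end and 5 from a start in ON, and 122 and 5 in PN.

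The free sequence within 5000 bases was similar on the 2 sides, with 59.1 Mb after ends and 62.4 Mb before starts in ON and 45.8 and 48.3 Mb in PN. For gaps between stranded spans, the transcripts were counted per Mb of sequence that no stranded span covers. Within 500 bases ON had 30.2 per Mb after ends and 10.7 per Mb before starts, a ratio of 2.82. PN had 93.5 and 26.4 per Mb, a ratio of 3.54. The ratio was smaller in each farther interval. It was 2.11 in ON and 2.06 in PN at 500 to 1000 bases, 1.64 and 1.68 at 1000 to 2000 bases, and 1.11 and 1.21 at 2000 to 5000 bases. After ends, the density fell from the nearest interval to 10.1 per Mb in ON and 28.8 per Mb in PN at 2000 to 5000 bases. Before starts it stayed between 9.07 and 10.7 per Mb in ON. In PN it was 26.4 per Mb within 500 bases, highest at 500 to 1000 bases with 37.6, and then fell to 32.4 and 23.9 per Mb. Before starts, the lowest density of PN and of ON in steps of 250 bases stood directly at the start, with 13.0 and 5.75 per Mb, against 41.2 and 16.2 per Mb in the next step.

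**Figure D1:**
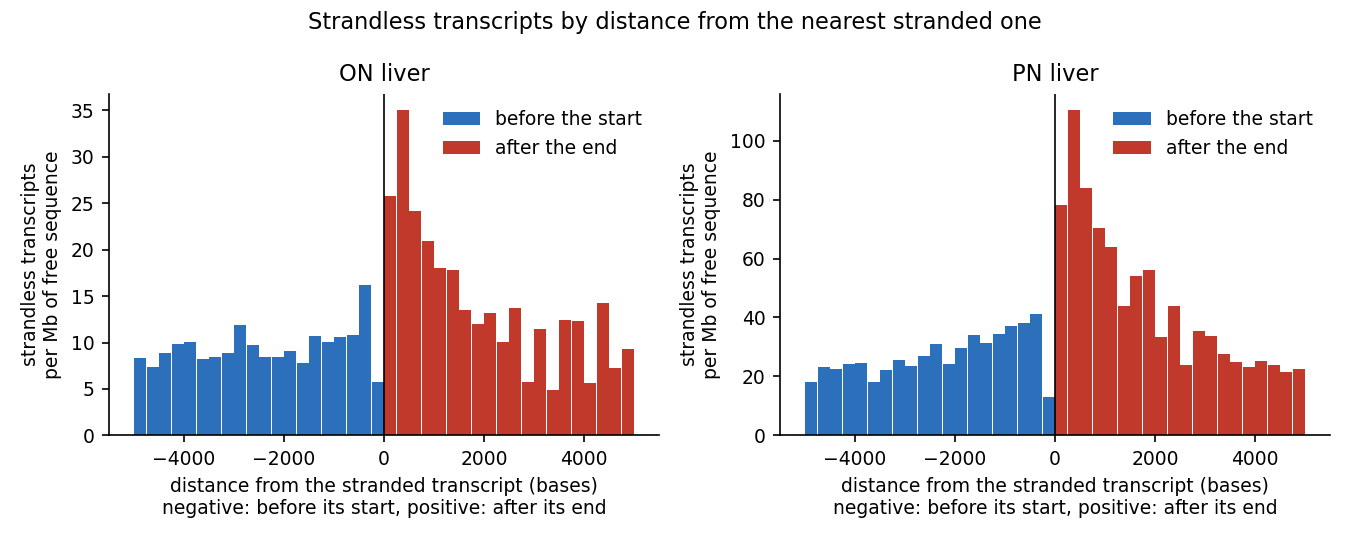
Flanking strandless transcripts per Mb of sequence free of stranded spans (y axis) in steps of 250 bases by distance from the nearest stranded transcript (x axis), before starts (blue) and after ends (red), with separate y scales for ON and PN. The density after ends peaked at 250 to 500 bases, at 35.1 per Mb in ON and 110 per Mb in PN, and was lower farther out. Before starts the tallest bars, also at 250 to 500 bases, reached 16.2 per Mb in ON and 41.2 per Mb in PN. In PN the bars before starts were lower farther out, with 18.2 per Mb at 4750 to 5000 bases.

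The arrangement of the neighbours gave the same order. Gaps between convergent transcripts, which end towards each other, held 17.2 transcripts per Mb in ON and 53.8 in PN. Tandem gaps, between transcripts on the same strand, held 13.0 and 40.6 per Mb, and divergent gaps, between 2 starts, held 8.04 and 24.7 per Mb. In tandem gaps alone, where each transcript had an end on one side and a start on the other, 503 were nearer to the end and 368 nearer to the start in ON, and 1329 and 811 in PN. Of all flanking transcripts, 363 in ON and 1178 in PN had a stranded transcript under 5000 bases away on both sides.

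The neighbours themselves had 1 exon more often than the listed stranded transcripts, though the 2 were not counted alike. Of the nearest stranded transcripts, 13.1% had 1 exon in ON where the strandless transcript lay after the end and 13.8% where it lay before the start, against 6.53% of all stranded transcripts. In PN the shares were 9.54%, 11.3% and 7.74%. The neighbours were as many as their loci, 936 and 603 in ON and 2389 and 1474 in PN. In contrast, the 33084 stranded transcripts of ON belonged to 23392 loci and the 27832 of PN to 20142, so a locus could count more than once. Shares per locus were not computed, so whether neighbours were unspliced more often than other loci was not tested. In ON, 398 of the 1712 flanking transcripts (23.2%) lay on sequences whose names begin with NW_, which RefSeq gives to scaffolds, whereas these sequences held 8.63% of the stranded transcripts. Of these 398, a mean FPKM of at least 10 was reached by 17 (4.27%), against 19 of 1314 (1.45%) on the other sequences. All PN transcripts lay on sequences named NW_, and 35 of the flanking ones there began at base 1 of their sequence, against 2 in ON.

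Most ends and starts of loci had no strandless transcript, and most of those that did had a single one. A locus is here a set of stranded transcripts with overlapping spans on a strand, and its level is the sum of their FPKM. In ON 936 of 23392 loci (4.001%) had a strandless transcript after the end and 603 (2.58%) before the start. In PN it was 2389 of 20142 loci (11.9%) and 1474 (7.32%). A single strandless transcript was found at 850 ends and 536 starts in ON, and at 2116 ends and 1313 starts in PN. In ON, 77 ends and 58 starts had 2, and 9 ends and 9 starts had 3. In PN, 251 ends and 144 starts had 2, 20 ends and 15 starts had 3, and 2 ends and 2 starts had 4.

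Loci of higher level had a strandless transcript after their end more often. In ON the share was 1.47% of loci with a mean FPKM under 0.1, 3.41% at 0.1 to 1, 5.23% at 1 to 10, 6.44% at 10 to 100 and 5.92% at 100 or more. In PN the shares were 5.83%, 9.02%, 14.2%, 14.0% and 15.0%. Before starts the shares ran from 1.96% to 3.94% in ON and from 6.41% to 10.5% in PN over the same classes. Below an FPKM of 0.1 the share before starts was the larger in both species, and in the other 4 classes the share after ends was. These are counts over loci, given without a test.

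**Figure D2:**
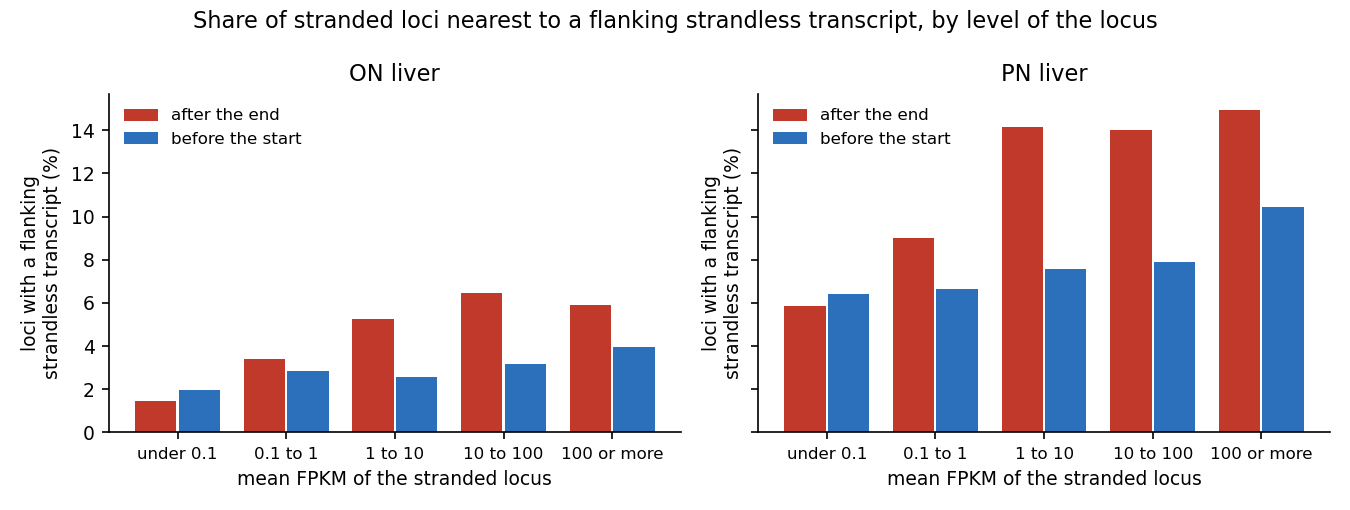
Percent of stranded loci (y axis) that were nearest to a strandless transcript after their end (red) or before their start (blue), by the mean FPKM of the locus over 3 fish (x axis classes). After ends the bars rise from 1.47% to 6.44% in ON and from 5.83% to 15.0% in PN between the lowest and the tallest class, and those before starts span 1.96% to 3.94% and 6.41% to 10.5%.

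The levels of flanking strandless transcripts were low and similar on the 2 sides. After ends, the median FPKM of ON fish 1, 2 and 3 was 1.46, 1.57 and 1.45, and before starts it was 1.47, 1.52 and 1.33. In PN the medians were 1.41, 1.81 and 1.55 after ends and 1.41, 1.75 and 1.61 before starts. Fish 2 was the highest of its species on both sides. On the log2(FPKM + 0.1) scale the median after ends minus the median before starts was 0.02 ± 0.06 (SD, n = 6 fish), higher in 4 of 6 fish (exact sign-flip permutation test, two-sided, p = 0.469, adjusted p = 0.562 over 6 comparisons). The adjusted values here and below follow Benjamini and Hochberg. Of the 1712 transcripts of ON, 404 were listed at 0 in at least 1 fish, as were 470 of the 4345 in PN. None was at 0 in all fish of its species, and the lowest mean FPKM was 0.427 in ON and 0.462 in PN. These transcripts were assembled from reads of the same fish, which by itself limits how low their levels can lie. The absence of transcripts at 0 in all fish is therefore no result, and the similar medians of the 2 sides are not free of that selection. The floor, 3 reads on a transcript of median length, was an FPKM of 0.219 (ON) and 0.221 (PN), so differences between single transcripts near an FPKM of 1 rest on few reads.

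Levels differed little with distance. The median FPKM of transcripts after ends, averaged over the fish, was 1.56 within 500 bases and 1.38 at 2000 to 5000 bases in ON, and 1.61 and 1.56 in PN. Length did differ with distance. After ends the median length was 711.5 bases within 500 bases and 436.5 bases at 2000 to 5000 bases in ON, and 772.5 and 508 bases in PN. Before starts the corresponding lengths were 468 and 439.5 bases in ON and 575 and 494 bases in PN.

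Set against far and inside strandless transcripts, the flanking ones were close to the far ones and slightly above the inside ones. Those on sequences with no stranded transcript were not tested, and their medians were higher in every fish. In ON fish 1, 2 and 3 their median FPKM was 1.49, 1.59 and 1.45, against 1.47, 1.55 and 1.40 for flanking ones. In PN it was 1.53, 2.07 and 1.84, against 1.41, 1.79 and 1.57. The median log2 level of flanking minus far transcripts was 0.06 ± 0.03 (SD, n = 3) in ON and -0.06 ± 0.03 in PN. Every ON fish was above 0 and every PN fish below, and over the 6 fish the mean was 0.003 (exact sign-flip permutation test, p = 0.938, adjusted p = 0.938). Flanking minus inside transcripts gave 0.21 ± 0.11 (SD, n = 3) in ON and 0.07 ± 0.04 in PN, above 0 in 6 of 6 fish. The mean over 6 fish was 0.14 (exact sign-flip permutation test, p = 0.0312, the smallest that 6 fish can give, adjusted p = 0.0625), so that this difference did not pass the threshold of 0.05 after adjustment. The fish of a species were read on the same flanking and inside transcripts, so their shared direction does not come from independent sets.

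Over both sides together, the median strandless transcript was below the locus it flanked, but in ON the difference before starts was close to 0. The median over transcripts of the log2 difference was -0.34, -0.34 and -0.48 in ON fish 1, 2 and 3 and -0.82, -0.53 and -0.66 in PN fish 1, 2 and 3. All 6 fish were below 0, with a mean of -0.39 ± 0.08 (SD, n = 3) in ON and -0.67 ± 0.14 in PN. Over the 6 fish the mean was -0.53 (exact sign-flip permutation test, p = 0.0312, adjusted p = 0.0625), which did not pass after adjustment. With the nearest transcript alone in place of the summed locus the mean was -0.13 (exact sign-flip permutation test, p = 0.125), and it was -0.22 over transcripts that reached an FPKM of 1 in every fish of their species. By side, the difference was -0.57 ± 0.09 (SD, n = 3) after ends and -0.03 ± 0.05 before starts in ON, where fish 1, 2 and 3 were at -0.0041, 0 and -0.09. In PN it was -0.79 ± 0.18 and -0.41 ± 0.11. A mean FPKM above that of the locus was seen for 769 ON (44.9%) and 1603 PN transcripts (36.9%).

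The loci differed more between the 2 sides than the strandless transcripts did. In ON fish 1, 2 and 3 the loci next to transcripts after ends had a median FPKM of 1.86, 2.002 and 1.94, those next to transcripts before starts 1.03, 1.04 and 0.985, and all loci 0.886, 0.899 and 0.892. In PN the medians were 2.67, 3.16 and 2.81 after ends, 1.91, 2.41 and 2.13 before starts, and 1.80, 2.18 and 1.96 over all loci. The 2 sides did not overlap between the fish of either species. The log2 difference was 0.86 ± 0.06 (SD, n = 3) in ON and 0.41 ± 0.05 in PN, in the same direction in 6 of 6 fish. The mean was 0.64 (exact sign-flip permutation test, p = 0.0312, adjusted p = 0.0625), and this comparison was added after the data had been seen.

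**Figure D3:**
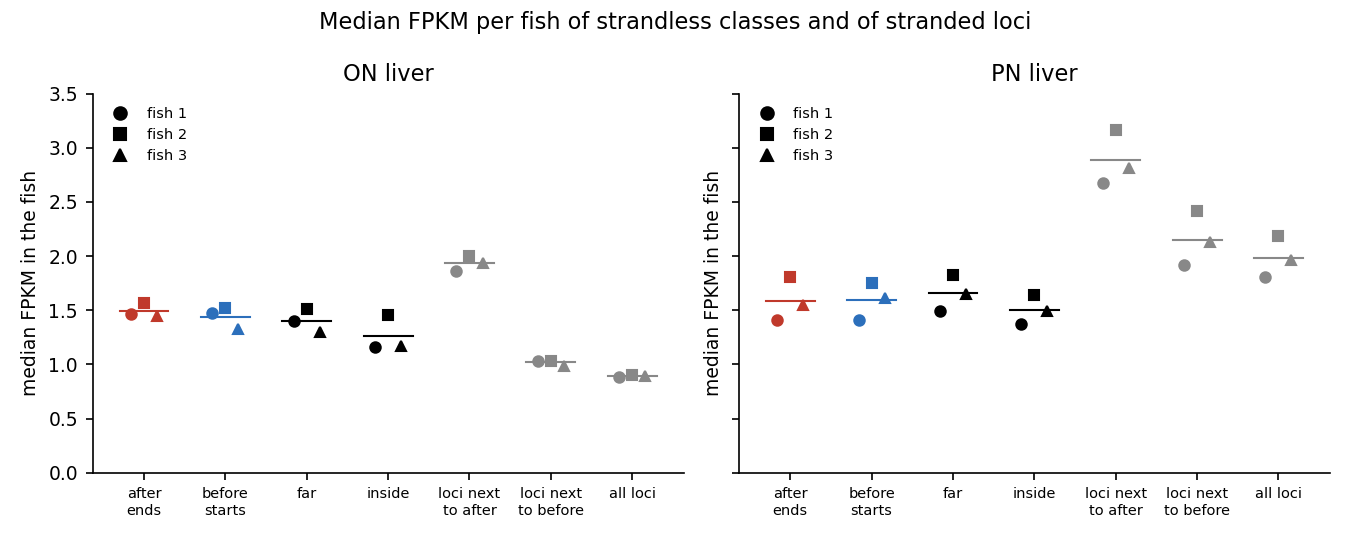
Median FPKM in each fish (points, fish 1 to 3 as circle, square and triangle; line, mean of the 3 medians) of strandless transcripts after ends, before starts, far from and inside stranded spans, and of the summed stranded loci (grey). The strandless classes shown lie between 1.16 and 1.83, while the loci next to transcripts after ends lie at 1.86 to 2.002 in ON and 2.67 to 3.16 in PN.

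Whether a strandless transcript and its neighbouring locus varied together was described by their deviations. For each fish, log2(FPKM + 0.1) was taken minus the mean over the 3 fish, for transcripts and loci with a mean FPKM of at least 1. Across 805 pairs in ON, Pearson's r of the deviations was 0.25, and across 2595 pairs in PN it was 0.30. When each transcript was given the locus of another, by a fixed shift along the genome, r was -0.01 in ON and 0.02 in PN. The fish with the highest level was the same for transcript and locus in 45.7% of pairs in ON, against 32.9% after the shift. In PN it was 47.4% against 37.0%. After ends the shares were 48.2% against 34.0% in ON and 48.9% against 35.7% in PN. Before starts ON had 40.9% both with the own locus and after the shift (n = 274), and PN had 44.3% against 37.0%. These values are descriptions across transcripts that share 3 libraries and in part a locus, and no p is given.

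The correlation was higher at short distance. Within 500 bases r was 0.39 in ON (n = 246) and 0.46 in PN (n = 676), and at 2000 to 5000 bases it was 0.07 (n = 230) and 0.17 (n = 748). In between it was 0.40 and 0.19 in ON, and 0.29 and 0.36 in PN, so the fall was not even. Both sides showed it. Within 500 bases r was 0.37 after ends and 0.43 before starts in ON, and 0.46 and 0.49 in PN. The values before starts in ON rest on few pairs, 61 within 500 bases and 61 at 1000 to 2000 bases. At 1000 to 2000 bases r was 0.02, and -0.07 without mRNA40377, against 0.13 after the shift. Among pairs in which both the transcript and the locus had a mean FPKM of at least 10, r was 0.13 in ON (n = 14) and 0.69 in PN (n = 73). Single pairs weighed on these values: mRNA43647 and its locus gave 44.8% of the summed products of deviations in PN, and r was 0.63 without them, while in ON r was 0.06 without mRNA37426. Over all pairs with a mean FPKM of at least 1, r was 0.24 in ON and 0.29 in PN without the pair of largest product, a choice made after the data had been seen.

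**Figure D4:**
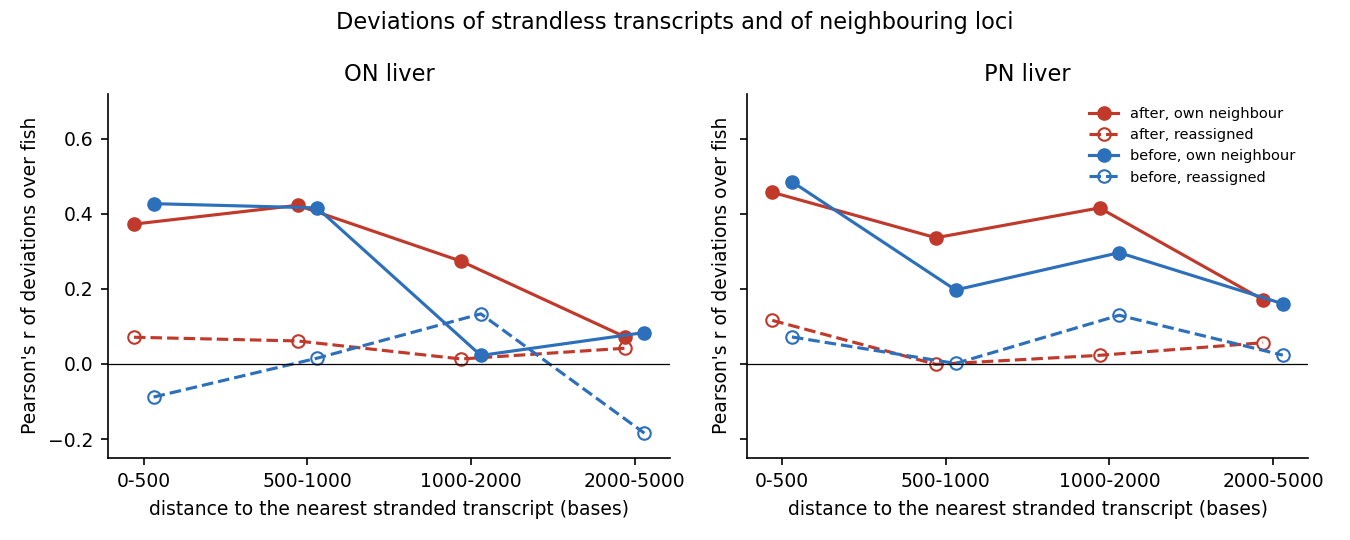
Pearson's r (y axis) between the deviations over the fish of strandless transcripts and of stranded loci, by distance (x axis), for transcripts after ends (red) and before starts (blue), with the own neighbouring locus (filled, solid) and with loci reassigned by a fixed shift (open, dashed). Within 500 bases the 4 filled points lie at 0.37 to 0.49 and the open ones at -0.09 to 0.12. At 2000 to 5000 bases the filled ones lie at 0.07 to 0.17 and the open ones at -0.18 to 0.06. Before starts at 1000 to 2000 bases the open points lie at 0.13 in both species, above the filled 0.02 in ON.

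Transcripts with a stranded locus on each side allowed both to be read. In ON r was 0.35 with the nearer and 0.22 with the farther locus (n = 148), and in PN 0.29 and 0.24 (n = 493). The 2 loci also deviated together, with r of 0.41 in ON and 0.22 in PN. Where the locus on one side ended and that on the other began, r was 0.40 with the ending and 0.30 with the beginning locus in ON (n = 91), and 0.36 and 0.30 in PN (n = 278). Consecutive strandless transcripts at the same end or start of a locus had an r of 0.37 in ON (n = 101) and 0.34 in PN (n = 295), against 0.08 and 0.06 after the shift.

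Below a mean FPKM of 100, the spread between fish was wider for flanking strandless transcripts than for loci of like level. At a mean FPKM of 2 to 5 the median SD of log2(FPKM + 0.1) over 3 fish was 0.49 after ends and 0.58 before starts in ON, against 0.31 for stranded loci. In PN it was 0.44 and 0.46, against 0.31. At 100 or more the 6 ON transcripts before starts had 0.25, against 0.25 for loci, and in PN the 5 after ends had 0.43 and the 10 before starts 0.33, against 0.31. At a mean FPKM of 2 to 5, far and inside strandless transcripts had 0.61 and 0.53 in ON and 0.44 and 0.40 in PN. The median length of all flanking transcripts was 519.5 bases in ON and 603 in PN, against 2422 and 2271 bases for stranded ones, so that they held fewer reads at the same FPKM. The part of this in the spread was not tested.

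A few transcripts held much of the RNA. Flanking strandless transcripts took 1.19%, 1.22% and 0.800% of the aligned bases in ON fish 1, 2 and 3, and 2.61%, 3.26% and 3.15% in PN. The mean of ON was 1.07% ± 0.23 (SD, n = 3) and that of PN 3.01% ± 0.35, a difference of 1.94 percentage points, and the 2 species did not overlap (exact permutation test of 3 against 3, two-sided, p = 0.1, the smallest it can give, adjusted p = 0.15). The 3 transcripts with the most aligned bases in each fish held 62.2% ± 7.0 (SD, n = 3) of these bases in ON and 42.1% ± 2.6 in PN. A mean FPKM of at least 10 was reached by 36 of the 1712 ON and 160 of the 4345 PN transcripts, and of at least 100 by 6 and 15. In ON all 6 of the latter lay before starts, and in PN 10 lay before starts and 5 after ends.

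By mean FPKM, the most abundant ones in ON were a pair on the sequence NC_031984.1. The transcript mRNA31675 (314 bases, NC_031984.1:21867654-21867967) had an FPKM of 6491, 7434 and 6489 in fish 1, 2 and 3. The transcript mRNA31676 (402 bases, NC_031984.1:21868877-21869278), 909 bases further on, had 5456, 5458 and 5349. The fish hardly differed in either, and the first stood at 1.26 ± 0.09 times (SD, n = 3) the second. Both lay before the start of mRNA31677, which was at 0.617, 0 and 0.0251 and has 11 exons, so that the strandless pair was abundant beside a nearest locus close to 0. On the other side, mRNA31675 also lay 4766 bases after the end of a stranded transcript, whose level is not given here.

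PN had a pair of the same kind. The transcript mRNA15708 (263 bases, NW_005187450.1:2087551-2087813) was at an FPKM of 5731, 8250 and 8127, and mRNA15709 (314 bases, NW_005187450.1:2088745-2089058), 931 bases further on, was at 5179, 6984 and 7819. Fish 1 was the lowest in both, and their ratio was 1.11 ± 0.07 (SD, n = 3). Their neighbour mRNA15707, of 11 exons, was at 0, 0.0934 and 0. The resemblance of the ON and PN pairs in length, spacing and neighbour was noticed after their values were seen, and no sequence was compared.

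The highest fish stood at 1.11 to 5.58 times the lowest in 5 other abundant transcripts before starts. In PN, mRNA20006 (323 bases, NW_005187474.1:2901046-2901368) was at 18800, 17394 and 20730, 259 bases before a start whose locus was at 28.1, 57.5 and 65.5. Its order over the fish was not that of the locus, which was lowest in fish 1. The transcript mRNA15373 was at 462, 448 and 496 beside a locus at 0, 0 and 0.0536. In ON, mRNA31783 was at 497, 642 and 654 beside a locus at 3.17, 1.24 and 1.18, and mRNA31771 at 357, 184 and 258 beside 1.02, 1.60 and 1.32. In PN, mRNA4421 was below its locus, at 504, 90.3 and 273 beside 1795, 759 and 3775, and fish 2 was the lowest in both.

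After ends the most abundant transcripts of PN were mRNA26993, mRNA17194 and mRNA45257. The transcript mRNA26993 (407 bases, NW_005187535.1:105237-105643) was at 7581, 12928 and 12396, 1076 bases after the end of a locus at 0.143, 0.427 and 0.213, with fish 1 lowest in both. The transcript mRNA17194 was at 2679, 2076 and 1793 beside a locus at 7.97, 7.90 and 7.77. The transcript mRNA45257 (205 bases, at the first base of its sequence) was at 1749, 1603 and 1385 beside a locus at 890, 529 and 680. The transcript mRNA36171 was at 81.4, 215 and 211 beside a locus at 0, 0.169 and 0.128, values at or near the 0.147 that 3 reads give there.

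In ON the most abundant transcripts after ends stayed below an FPKM of 100 on average. The transcript mRNA37677 was at 114, 75.7 and 103 beside a locus at 0.618, 0.548 and 0.160. The transcript mRNA36198, at 40.2, 40.3 and 14.3, did not follow its locus, at 69.1, 76.0 and 73.5. The transcript mRNA16159 was at 16.6, 32.6 and 46.7 beside a locus at 0.168, 0.0675 and 0. There 3 reads give 0.0506, so the order of the fish in that locus rests on few reads.

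**Figure D5:**
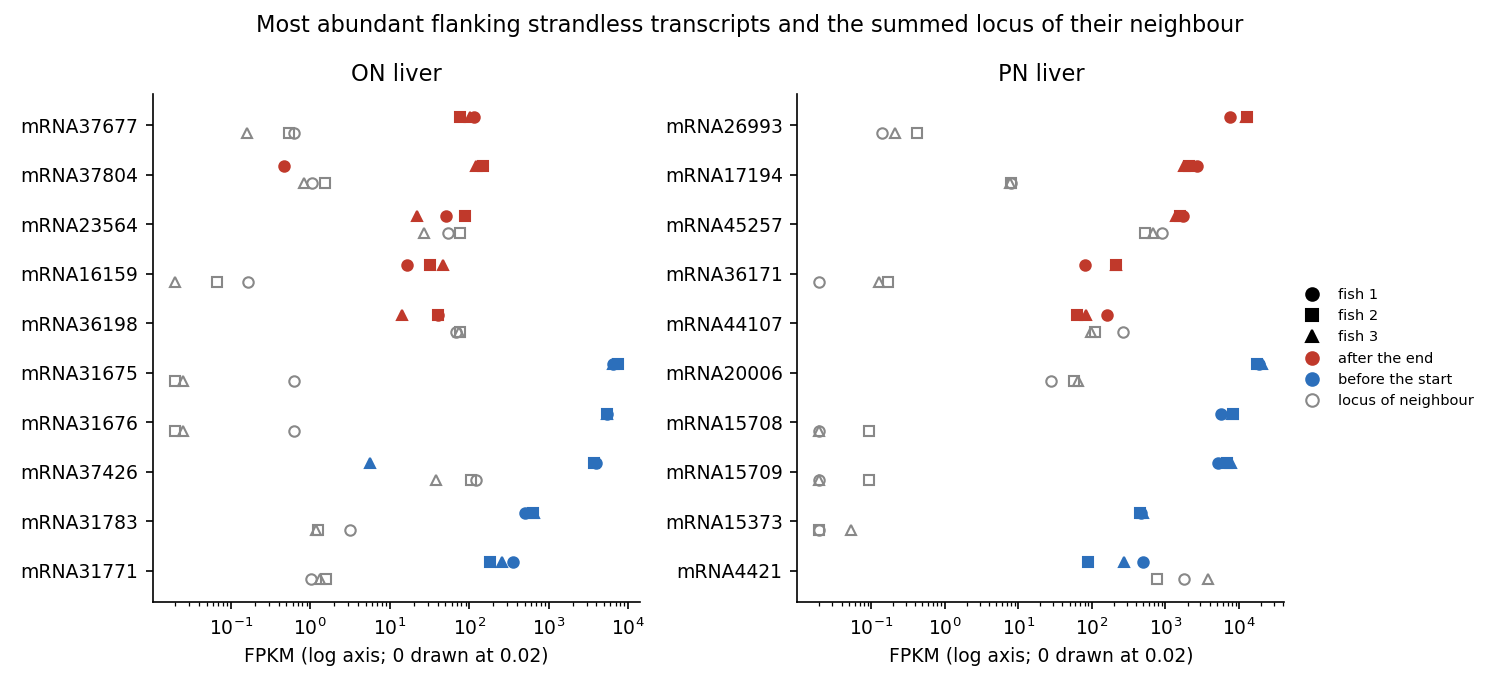
FPKM in each fish (x axis, log scale, 0 drawn at 0.02; circle, square and triangle for fish 1, 2 and 3) of the 5 most abundant flanking strandless transcripts after ends (red) and before starts (blue) of each species, with the summed locus of their neighbour (grey, open). Most stand far above their locus in every fish, such as mRNA31675 at 6489 to 7434 beside 0 to 0.617, whereas mRNA23564, mRNA36198, mRNA44107 and mRNA4421 overlap or lie below theirs, and mRNA37804 in fish 1 and mRNA37426 in fish 3 lie below a locus they otherwise exceed.

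Some transcripts after ends moved with their locus at a similar level. In ON, mRNA23564 (530 bases, NC_031978.1:30411140-30411669) was at 51.0, 89.1 and 22.0, 673 bases after the end of a single-exon locus at 54.9, 77.8 and 26.8. In PN, mRNA44107 (2208 bases, NW_005189340.1:5468-7675) was at 163, 63.1 and 83.3, 679 bases after the end of a single-exon locus at 265, 112 and 97.5. The highest fish was shared in both cases, fish 2 and fish 1, while the order of the lower 2 fish differed between mRNA44107 and its locus.

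Large differences between fish were found as well. Among transcripts with a mean FPKM of at least 10, a range over 3 log2 units was seen for 6 of 36 in ON and 10 of 160 in PN. In PN, mRNA43647 (1576 bases, 275 bases after an end) was at 0.128, 0.417 and 44.6, and its locus at 0.109, 0.182 and 675. Only fish 3 was high, in both. In contrast, mRNA16298 was at 0.119, 0.874 and 36.0 beside a locus at 31.1, 34.8 and 35.0, and mRNA36501 at 0, 36.1 and 0 beside a locus at 0.227, 0.315 and 0.0953. The low values of mRNA16298 in fish 1 and mRNA36501 in fish 1 and 3 lie under the floor of 3 reads, which is 0.578 and 0.192.

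In ON the widest ranges were those of mRNA37191, mRNA37426 and mRNA37337, all on sequences named NW_. The transcript mRNA37426 (936 bases, NW_017614566.1:3938-4873) was at 3952, 3755 and 5.65, and its single-exon locus, 712 bases away, at 124, 106 and 38.2. Fish 3 was the lowest in both, by a factor of 699 between the highest and the lowest fish in the strandless transcript. On its other side another start lay 774 bases away, and the level of that neighbour is not given here. The transcript mRNA37191, equally near to 2 stranded ends of different kinds, was at 0, 0 and 126 beside a locus at 290, 233 and 378. That locus is the one of mRNA37189, and the level of the other equally near neighbour is not given here. The transcript mRNA37337 was at 38.8, 0 and 0 beside 1.03, 0.582 and 9.35, where fish 3 and not fish 1 was the highest. To these came mRNA37804, 74 bases after an end, at 0.474, 148 and 123.1 beside a locus at 1.05, 1.52 and 0.825.

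Several strandless transcripts before the same start had related levels. In ON, mRNA33064, mRNA33065 and mRNA33066 lay 936, 2290 and 4935 bases before the start of mRNA611, at 14.0, 31.1 and 14.6, at 6.94, 13.2 and 4.35, and at 1.72, 3.03 and 0. Fish 2 was the highest in each. On the other side of the same locus, 4998 bases after its end, mRNA33061 was at 13.7, 33.4 and 12.2, while the locus itself was at 0.138, 0.0742 and 0. In PN, mRNA39875, mRNA39876, mRNA39877 and mRNA39878 lay 1061 to 4679 bases before the start of mRNA39874. The first was at 5.84, 9.78 and 10.4 and the last at 5.77, 9.54 and 10.8. Fish 3 was the highest and fish 1 the lowest in all 4, as in their locus at 19.1, 28.1 and 39.0.

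At the edges of the rule the levels were low apart from mRNA33061. In ON the nearest transcripts were mRNA26616, 3 bases after an end, at 1.78, 1.58 and 1.82 beside a locus at 2.81, 2.91 and 3.28, and mRNA39202, 3 bases before a start, at 1.77, 1.82 and 2.50 beside a locus at 0.0206, 0 and 0. The nearest in PN was mRNA29209, 4 bases after an end, at 1.65, 1.71 and 0.0938 beside 1.79, 1.38 and 1.15. Just inside the limit in PN, mRNA24103 and mRNA27335, both at 4998 bases, had a mean FPKM of 1.03 and 2.33. Just outside it, mRNA35575 in ON at 5003 bases and mRNA21708 in PN at 5007 bases had 0.891 and 3.83.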

How the data were processed

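Per the submitters' processing notes, reads were aligned with HISAT2 2.1.0 and assembled with StringTie. The study assembled the reads with and without the reference annotation and also de novo, and the tables used here are named by the authors as those with the reference. In its methods the replicates of a species were merged, and unexpressed or duplicated transcripts were removed. Similar transcripts within a locus were also clustered, and each cluster was merged into the union of its exons. Whether the tables used here precede or follow these steps is not established here. The authors deposited an FPKM and a mean per-base coverage (signal) for every transcript and library. No counts were used, since the tables hold FPKM and coverage.

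Coverage divided by FPKM was constant within a library (relative tolerance 0.0001) and gave the aligned bases. How reads with several alignments entered this total was not stated in the sources used here. Coordinates are those of the authors' tables. No genome or annotation of the builds was used, so no sequence is printed and no gene is named.

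Each fish gave 1 difference of medians of log2(FPKM + 0.1), a scale which understates changes of low transcripts. For transcripts minus locus each fish gave instead 1 median of the differences within pairs. These values were tested with a two-sided exact sign-flip permutation test over 6 fish. Shares were tested with an exact permutation of 3 against 3. Adjustment was over the 6 comparisons. Neighbours were reassigned by 1 fixed shift of the list in genome order. All computations used Python 3.11.15 (numpy 2.4.6 for arrays, pandas 2.3.3 for tables, scipy 1.17.1, matplotlib 3.10.9 for plots). The permutation tests and the adjustment were coded directly. The neighbour search, the joining of loci and the recovery of a correlation were tested on simulated data.

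Named were, per species, the 5 most abundant transcripts on each side and the 3 with the widest range among those with a mean FPKM of at least 10. Those nearest to a neighbour or to the limit were named too, and those at the end or start of a locus with the most members. Where several ends or starts had the same number, 1 is given. The members and lists were chosen with earlier results of these data known. Alternatives covered the distance limit, pseudocount, FPKM minimum, the locus definition, leaving out each fish and the replicate number as a block.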

Additional observations from a re-analysis of the deposited data

Results flagged for a closer look

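The level of flanking minus far strandless transcripts had opposite signs in the 2 species. The median log2 difference was 0.064 in ON, above 0 in 3 of 3 fish, and -0.058 in PN, below 0 in 3 of 3 fish. The difference between the species gave an exact p of 0.1 when the labels of the 3 ON and 3 PN fish were permuted, two-sided, the smallest possible, and species and transcript set cannot be told apart. With an FPKM above 0 in all 3 fish of the species the mean over the 6 fish was -0.027.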

How the results depend on the processing

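The log2 difference between transcripts after ends and before starts turned to -0.014 with an FPKM above 0 in all 3 fish and to -0.0035 with at least 1, and ranged from 0.0037 to 0.04 when each fish was left out. Flanking minus far turned to -0.027 and -0.024 under those minimums and ranged from -0.017 to 0.019 without each fish, below 0 without any of the ON fish (-0.0077, -0.0032 and -0.017). Leaving out a fish gave -0.57 to -0.47 for transcripts minus locus, 0.11 to 0.16 for flanking minus inside and 0.58 to 0.69 for loci after minus before, each with an exact permutation p of 0.0625, the smallest that 5 fish allow. Transcripts minus locus was -0.13 with the nearest transcript alone (exact permutation p = 0.125), -0.22 over transcripts that reached an FPKM of 1 in every fish and -0.30 with a pseudocount of 1. With that pseudocount flanking minus inside was 0.09 and loci after minus before 0.42. The correlation of deviations in ON was 0.13 at a mean FPKM of at least 10 (0.058 without mRNA37426) and 0.17 to 0.30 without each fish, with the lowest value without replicate 2. In PN it was 0.36 with at least 1 in all fish, 0.69 at a mean of at least 10 (0.63 without mRNA43647), 0.35 with a pseudocount of 1, 0.24 with the nearest transcript and 0.28 to 0.32 without each fish. A limit of 1000 bases left 475 after ends and 208 before starts in ON and 1306 and 538 in PN. Before starts 2000 bases left 355 and 957, and 10000 bases gave 1019 in ON. An FPKM of at least 1 in all fish left 360 and 209 in ON and 1242 and 740 in PN. The share of aligned bases differed by 1.80 to 2.14 points without each fish and by 0.823 points at a limit of 1000 bases. With the replicate number as a block it differed by 1.94 points (exact sign-flip permutation p = 0.25, the smallest 3 pairs allow). ON and PN fish of the same number share only a number. At 3 fish per species and a floor of about 0.22 FPKM, single transcripts near an FPKM of 1 could not be compared between fish.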
